A study of Mus musculus with 12 samples.

Results

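RNA was sequenced from marrow cells of leukemic mice in which the MLL-ENL fusion had been induced, and cells sorted for low B220 (B220 LOW) were set against cells taken from total marrow (iMLL-ENL total). The comparison used 6 of the 12 libraries of the series, 3 in each group, chosen by their labels alone and joined by NCBI gene ID. All 6 came from C57BL/6 mice that carried an MLL-ENL knock-in that doxycycline switches on, and that were given the drug until acute leukemia arose. Knock-in and drug were thus the same on both sides, and neither wild-type nor untreated knock-in cells entered the test. A second sorted group, B220 HIGH, held cells of the same genotype and treatment with high B220 and is given beside some results. The labels name 3 animals per genotype but no animal for a library, so the p-values speak only of the spread among these libraries. The promoter that drives the fusion and the age of the mice are not stated in the sources used here.

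B220 LOW and B220 HIGH share 1 deposited table, and iMLL-ENL total lies in another. The sort, the table and the group are therefore a single variable here, and their parts in any difference below cannot be told apart. The groups were sampled as populations of cells, so fewer cells of a type and less RNA of a gene per cell cannot be told apart either.

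MLL-ENL joins the start of the chromatin protein encoded by Kmt2a to part of ENL, encoded by Mllt1, and keeps genes such as Hoxa9 and Meis1 active in leukemic cells. B220 is the long form of the surface phosphatase CD45, carried by B cells, by plasmacytoid dendritic cells and by some leukemic cells. Leukemic marrow holds blasts together with more mature myeloid cells, and a sort changes which of these are sampled.

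Libraries held 13441700 to 16626800 counts in B220 LOW and 18001600 to 22706900 in iMLL-ENL total. Ptprc, which encodes CD45, stood at 610, 241 and 431 CPM (counts scaled to the library total) in B220 LOW numbers 1, 2 and 3 and at 749, 554 and 737 CPM in iMLL-ENL total. The groups overlapped and the gene did not pass the test (log2 change -0.73, SE 0.25, adjusted p = 0.0625). Ptprc was called lower with DESeq2 (adjusted p = 0.0241), limma-voom (adjusted p = 0.0323) and no filter (adjusted p = 0.0285). It was also called with a minimum count of 30 (adjusted p = 0.0458) and without iMLL-ENL total number 3 (adjusted p = 0.0315). Its gene count sums all CD45 forms, so it does not check the sort. Kmt2a stood at 350 ± 148 CPM (SD, n = 3) in B220 LOW and at 461 ± 124 CPM in total marrow (change of -0.41 on the log2 scale, SE 0.27, adjusted p = 0.316). Mllt1 stood at 22.3 ± 4.48 and 33.3 ± 6.68 CPM (log2 change -0.55, SE 0.40, adjusted p = 0.374). Whether reads of the fusion are counted in these genes is not stated in the sources used here. If they are, the gene counts do not separate them from reads of the normal alleles. All 6 libraries had Xist at 2516 CPM or more and 0 counts over 4 Y-linked genes.

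Of 12750 genes tested, edgeR's quasi-likelihood test with the library number as a block called 2401 at an adjusted p under 0.05, which is 18.8%. In B220 LOW 1324 genes were higher, 10.4% of those tested, and 1077 were lower, 8.45%. The median log2 change over all genes tested was -0.03. Without the block the test called 1469 genes. Leaving out B220 LOW number 3 left 1265 calls, leaving out iMLL-ENL total number 1 left 1525, and leaving out iMLL-ENL total number 2 left 1551. The same fit of B220 HIGH against iMLL-ENL total called 1382 of 13103 genes, 10.5%, and B220 HIGH against B220 LOW, both of 1 table, called 79 of 12564, 0.629%. These fits share libraries with the main comparison, so their values are only set side by side.

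**Figure D1:**
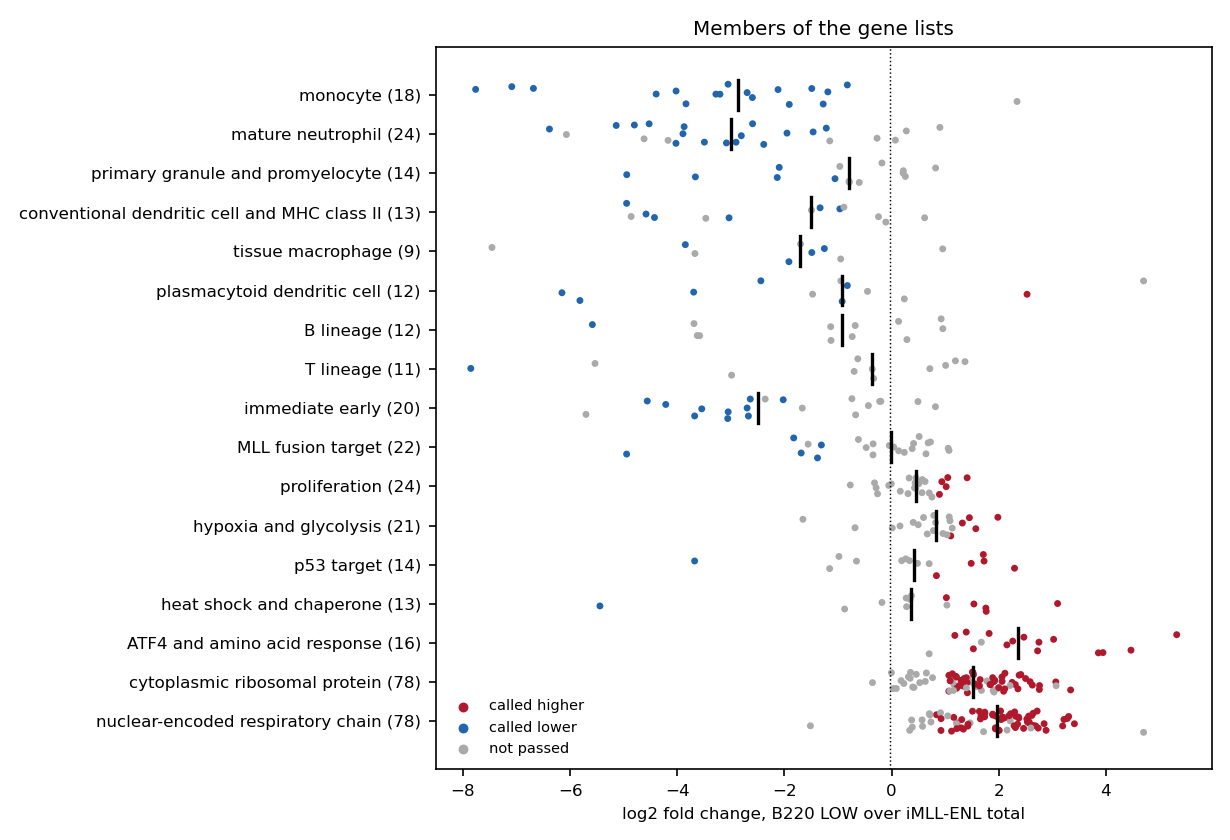
Log2 fold change (x axis, B220 LOW over iMLL-ENL total) of each tested member of 17 gene lists, with the number tested in brackets, the list median as a black bar and the median of all genes as a dotted line. Of the monocyte genes 17 of 18 were lower, and of the ATF4 and amino acid response genes 14 of 16 were higher.

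Monocyte genes were lower in B220 LOW. Of 18 tested, 17 fell and 0 rose, with a median log2 change of -2.87. Lyz2, which encodes the lysozyme of monocytes, macrophages and granulocytes (NCBI gene 17105, GRCm38 chromosome 10, 117277541 to 117282272), stood at 156, 130 and 512 CPM in B220 LOW numbers 1 to 3 and at 2017, 1868 and 8577 CPM in iMLL-ENL total. The groups did not overlap, and number 3 was the highest on both sides. Lyz2 fell by 3.84 on the log2 scale (SE 0.26, adjusted p = 0.000114). Cx3cr1, the fractalkine receptor of patrolling monocytes (chromosome 9, 120048683 to 120068296), stood at 0.262, 0.0744 and 0.481 CPM against 29.6, 10.1 and 85.2 CPM. No B220 LOW library came near the lowest library of iMLL-ENL total, and the gene fell by 7.09 (SE 0.59, adjusted p = 0.000224). F13a1, which encodes a subunit of clotting factor XIII made by monocytes, went from 1047 ± 440 to 56.4 ± 44.1 CPM, a fall by 4.39 (SE 0.50, adjusted p = 0.000817). Itgam, which encodes CD11b, stood at 207 ± 53.7 CPM against 905 ± 156 CPM and fell by 2.12 (SE 0.27, adjusted p = 0.00121). Csf1r, the receptor for macrophage colony-stimulating factor, fell by 1.91 (SE 0.33, adjusted p = 0.00456), a call not made without the block (adjusted p = 0.0817). The exception on the list was Fcgr1, which lay between 0.0463 and 5.11 CPM in all 6 libraries and did not pass.

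In B220 HIGH, Lyz2 was at 454, 1965 and 4264 CPM in B220 HIGH numbers 1 to 3, and Itgam at 346, 1388 and 834 CPM. B220 HIGH number 1 lay lowest for both genes. The ranges of the sorted groups met for Lyz2 and not for Itgam, which was higher in every B220 HIGH library. Between the sorted groups, 2 of 17 monocyte genes tested differed, both higher in B220 HIGH, against 0.629% of all genes. They were Cd14, an endotoxin co-receptor (2.61, SE 0.42, adjusted p = 0.0482), and Mpeg1, the macrophage perforin (2.25, SE 0.28, adjusted p = 0.0153).

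**Figure D2:**
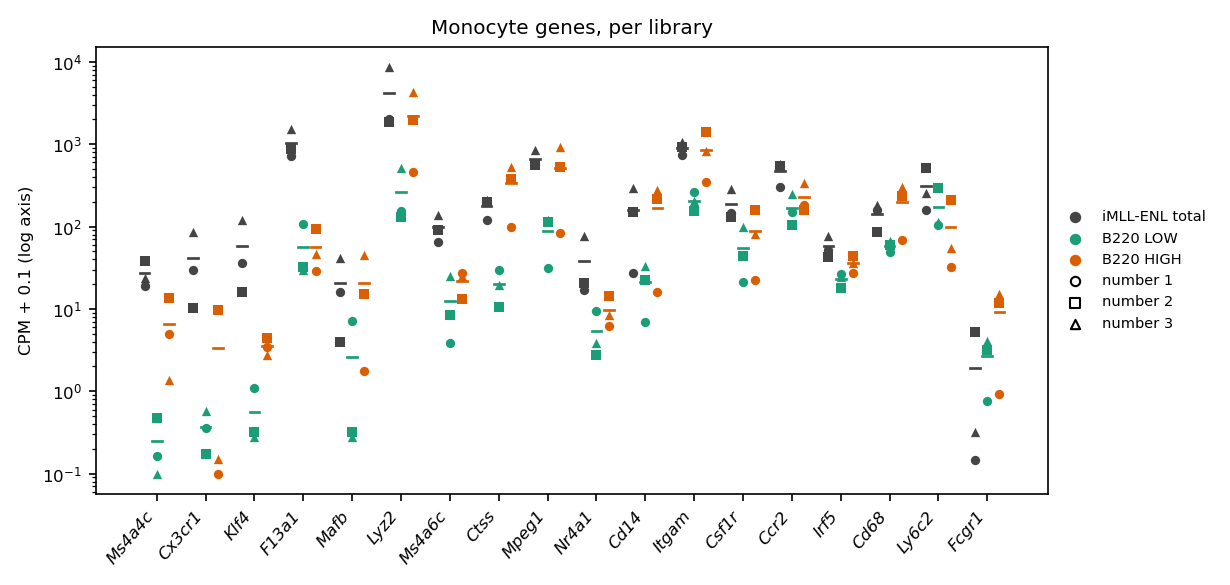
CPM plus 0.1 on a log axis of the 18 monocyte genes in each library, coloured by group and shaped by library number, with bars at the group means. For most of the genes the B220 LOW points lie below all iMLL-ENL total points, with Fcgr1 among those that overlap.

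Genes of mature neutrophils moved the same way. Of 24 tested, 16 fell and 0 rose, with a median of -2.99. Only 6 fell in a fit over the 9 leukemic libraries, which has B220 HIGH in its estimate of the spread. Chil3, a chitinase-like gene of myeloid cells (chromosome 3, 106147554 to 106167564), stood at 108, 169 and 456 CPM in B220 LOW and at 1596, 3718 and 4901 CPM in iMLL-ENL total. The highest sorted library lay below the lowest library of total marrow, and Chil3 fell by 3.89 (SE 0.30, adjusted p = 0.000152). Ngp, a secondary granule protein, stood at 52.97, 86.7 and 113 CPM against 349, 1749 and 3797 CPM, again without overlap, and fell by 4.02 (SE 0.41, adjusted p = 0.000572). Neither gene was called in the fit over the 9 leukemic libraries (adjusted p = 0.0862 for Chil3 and 0.129 for Ngp). S100a8, which encodes a subunit of calprotectin and is among the most abundant neutrophil messages, did not pass (log2 change 0.28, SE 0.37, adjusted p = 0.641). It stood at 241, 911 and 1754 CPM in B220 LOW and 135, 1910 and 937 CPM in iMLL-ENL total, so the libraries of a group spread far more than the groups differed. Its direction turned under 5 alternatives, and it was called lower with the gene width trend described below removed (-1.06, adjusted p = 0.0401). Its partner S100a9 fell by 1.22 (SE 0.38, adjusted p = 0.0458) with overlapping groups.

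The primary granule genes of promyelocytes were split. Of 14 tested, 5 fell and 0 rose, with a median of -0.79, and 2 fell without the block. With the gene width trend removed 7 fell. Mpo, which encodes myeloperoxidase (chromosome 11, 87793784 to 87804412), stood at 105, 1756 and 400 CPM in B220 LOW and at 3680, 9811 and 4620 CPM in iMLL-ENL total. Number 2 was the highest in both groups, and the groups did not overlap. Mpo fell by 3.66 (SE 0.47, adjusted p = 0.0014), a call lost without B220 LOW number 3 (adjusted p = 0.179), without iMLL-ENL total number 3 (adjusted p = 0.421) and without the block (adjusted p = 0.071). Elane, which encodes neutrophil elastase, stood at 444, 2364 and 1389 CPM against 993, 4787 and 1697 CPM and did not pass (-0.79, SE 0.27, adjusted p = 0.0613). It was called lower with DESeq2 (adjusted p = 0.0191), limma-voom (adjusted p = 0.0185) and no filter (adjusted p = 0.0154). Library totals only (adjusted p = 0.0461) and a minimum count of 30 (adjusted p = 0.0449) also called it. So did removal of the gene width trend (-1.75, adjusted p = 0.00358). Leaving out B220 LOW number 3 (adjusted p = 0.0133) or iMLL-ENL total number 3 (adjusted p = 0.000521) did the same. Ctsg, the granule protease cathepsin G, had a log2 change of 0.22 (SE 0.27, adjusted p = 0.60) and Ms4a3, a marker of granulocyte and monocyte progenitors, one of 0.82 (SE 0.29, adjusted p = 0.0755). These 4 genes were the members of the list that differed within the sorted table, all lower in B220 HIGH. Mpo was 2.53 lower there on the log2 scale (SE 0.18, adjusted p = 0.000701) and Elane 3.56 lower (SE 0.28, adjusted p = 0.00235).

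Markers of lymphoid cells were few in B220 LOW. The summed level of 24 B lineage genes ran from 101 to 202 CPM in B220 LOW and from 97.1 to 302 CPM in iMLL-ENL total, and 8 of the genes had 0 counts in B220 LOW, among them Pax5, Rag1 and Igll1. Vpreb2 had 0 counts in both groups. The early B cell factor Ebf1 was the 1 member called of 12 tested, which is 8.33% lower, against 8.45% of all genes. It had 3 counts over the 3 B220 LOW libraries and 159 over the total marrow libraries, which is a ratio of 38.6 (95% counting interval 12.96 to 189), and its call was lost when any 1 library was left out. T lineage genes summed to 35.0 to 72.3 CPM against 48.9 to 122 CPM. Of these Cd3e, a chain of the T cell receptor complex, had 1 count in B220 LOW and 395 in total marrow, which is a ratio of 288 (95% counting interval 51.3 to 11385). Its call was not made without iMLL-ENL total number 2 (adjusted p = 0.068), where it stood at 15.8 CPM against 2.87 and 2.16 CPM in the others. The 10 natural killer cell genes summed to at most 0.786 CPM in B220 LOW and to 4.54 to 15.3 CPM in iMLL-ENL total, and none was tested.

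Of 12 plasmacytoid dendritic cell genes tested, 6 fell (50%, against 8.45% of all genes) and 1 rose (8.33%, against 10.4%), with a median of -0.93. Only 3 fell without B220 LOW number 2 or 3 or iMLL-ENL total number 1 or 2. Siglech, the defining surface lectin of these cells, had 1 count in B220 LOW and 154 in iMLL-ENL total, and leaving out any single library other than iMLL-ENL total number 3 ended its call. Irf8, a transcription factor that dendritic cells and monocytes need, stood at 16.8, 3.65 and 11.8 CPM in B220 LOW and at 99.8, 81.5 and 212 CPM in iMLL-ENL total. The groups did not overlap, and Irf8 fell by 3.69 (SE 0.41, adjusted p = 0.000817). Tlr7, an RNA sensor, fell by 2.44 (SE 0.35, adjusted p = 0.00222), and Tcf4, the factor that sets up this lineage, did not pass (-0.45, SE 0.26, adjusted p = 0.259). The member that rose was Bst2 (tetherin), at 48.8 to 54.0 CPM in B220 LOW and 5.68 to 18.9 CPM in iMLL-ENL total (2.53, SE 0.44, adjusted p = 0.00472).

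Antigen presentation genes fell in part. Of 13 genes tested for MHC class II and conventional dendritic cells, 6 were lower and 0 higher, with a median of -1.50. Without B220 LOW number 3 the count was 2, and without the block 3. H2-Aa, a class II chain, stood at 2.16, 1.34 and 1.32 CPM in B220 LOW and at 32.7, 39.4 and 45.0 CPM in iMLL-ENL total, and fell by 4.58 (SE 0.51, adjusted p = 0.000817). Cd74, the invariant chain that escorts class II, fell by 3.03 (SE 0.48, adjusted p = 0.00327), and was not called in the fit over the 9 leukemic libraries (adjusted p = 0.113). In B220 HIGH, H2-Aa stood at 49.5, 925 and 42.9 CPM and Cd74 at 117, 1783 and 123 CPM. Every B220 HIGH library lay above every B220 LOW library for both genes, number 2 by far the most, and neither gene passed the test between the sorted groups. H2-Ab1, the partner chain of H2-Aa, stood at 26.0 to 49.8 CPM in B220 LOW and 17.7 to 32.3 CPM in iMLL-ENL total and did not pass (0.62, SE 0.36, adjusted p = 0.258).

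Other marrow cells gave smaller counts. Of 16 tissue macrophage genes listed 9 were tested and 4 fell (44.4% of those tested, against 8.45% of all genes). C1qa, C1qb, C1qc, Cd5l, Marco and Mertk had 0 counts in B220 LOW. Cd163, a haemoglobin scavenger receptor, fell by 3.85 (SE 0.71, adjusted p = 0.00603), and Slc40a1, the iron exporter, by 1.92 (SE 0.33, adjusted p = 0.0046). Slc40a1 was not called without the block (adjusted p = 0.115), where 2 of the 9 fell. Of 10 eosinophil, basophil and mast cell genes 4 fell, among them Hdc, which makes histamine, at 7.50 ± 3.70 against 77.9 ± 36.4 CPM (-3.31, SE 0.38, adjusted p = 0.000817), and Siglecf (-1.65, SE 0.33, adjusted p = 0.00847). The Siglecf call ended without the block (adjusted p = 0.155), where 2 of the 10 fell, and without iMLL-ENL total number 2 (adjusted p = 0.0973). Platelet genes had 2 of 7 lower, Selp and Itgb3, at adjusted p = 0.0457 and 0.0434, and both calls ended under most single alternatives. None of 6 erythroid genes tested was called, and none of the 4 marrow stroma genes tested of 14 listed. The stromal genes Cxcl12, Kitl, Sparc, Bgn and Col1a2 had 0 counts in B220 LOW, and Col3a1 in both groups. The B220 LOW libraries were the smaller ones, and a count of 0 is by itself no test of a difference. Hba-a2 had 0 counts in B220 LOW and 1 in iMLL-ENL total. Of 6 plasma cell genes Xbp1 alone was called, higher at adjusted p = 0.049, which is 16.7%, against 10.4% of all genes. The Xbp1 call also ended under most single alternatives, while Sdc1 stood at 0.120 to 1.86 CPM in B220 LOW. The part that these cells have in the differences between the groups was not tested.

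Genes of the immediate early response, which cells switch on within minutes of a stimulus and also during tissue handling, were lower in B220 LOW. Of 20 tested, 10 fell and 0 rose, with a median of -2.50. Fos (chromosome 12, 85473890 to 85477274) stood at 9.76, 74.3 and 24.1 CPM in B220 LOW and at 371, 695 and 926 CPM in iMLL-ENL total. Every sorted library lay far below every library of total marrow, and Fos fell by 4.56 (SE 0.44, adjusted p = 0.000401). In B220 HIGH it stood at 13.002, 119 and 54.8 CPM, also below every library of iMLL-ENL total. Zfp36, which destabilises inflammatory messages, stood at 31.8, 55.6 and 47.0 CPM against 291, 359 and 489 CPM and fell by 3.06 (SE 0.27, adjusted p = 0.000273). Btg2, an antiproliferative gene of this response and of p53, fell by 3.68 (SE 0.35, adjusted p = 0.000393). Jun fell by 3.54 (SE 0.35, adjusted p = 0.000503) and Dusp1, a phosphatase of stress kinases, by 4.22 (SE 0.44, adjusted p = 0.000615). Junb, Jund, Ier2 and Ier5 did not pass, with log2 changes of -0.67 to -0.20. How long the cells of each group were held before lysis is not stated in the sources used here, and its part was not tested.

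Inflammatory genes had 5 of 16 lower (31.25%, against 8.45% of all genes) and 1 higher (6.25%, against 10.4%). Only 3 were lower without either library of number 1, iMLL-ENL total number 3 or the block. Il1b stood at 0.262, 0 and 0.0601 CPM in B220 LOW and at 2.18, 4.22 and 47.7 CPM in iMLL-ENL total (-6.39, SE 1.29, adjusted p = 0.00854), a call that ended without iMLL-ENL total number 3 (adjusted p = 0.149). Nfkbiz, an inducible partner of NF-kB, fell by 2.42 (SE 0.41, adjusted p = 0.0043). Tnf was the member that rose (1.27, SE 0.36, adjusted p = 0.0321), with overlapping groups. Its call was not made without the block, B220 LOW number 2 or 3, or iMLL-ENL total number 2. Nor was it made against a fold of at least 2 or with the gene width trend removed. Of 20 interferon response genes tested 1 fell (5%, against 8.45% of all genes). This was Mx1, from 8.24 ± 2.73 to 0.389 ± 0.573 CPM (-5.26, SE 1.205, adjusted p = 0.0141), a call not made without the block (adjusted p = 0.0519).

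Genes of adhesion and migration had 6 of 19 lower (31.6%, against 8.45% of all genes) and 0 higher. The homing receptor Cxcr4 stood at 23.9 to 68.7 CPM against 238 to 355 CPM and fell by 2.47 (SE 0.39, adjusted p = 0.00335). The groups did not overlap, and in B220 HIGH Cxcr4 stood at 28.8 to 81.7 CPM. Of 11 tested genes of a list on epithelial to mesenchymal change 5 fell and 0 rose, among them the transcription factor Ets1 (-2.85, SE 0.32, adjusted p = 0.000817).

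Genes of amino acid synthesis and import were higher in B220 LOW. These belong to the integrated stress response, in which phosphorylation of the initiation factor eIF2 slows translation in general while the transcription factor ATF4 is made and turns on genes that make, import and activate amino acids. ATF4 pairs with C/EBP proteins on a composite site of the form TGATGNAA. Of 16 genes listed for this response, all tested, 14 rose and 0 fell, and the median log2 change was 2.37. For 15 of the 16 the libraries of the groups did not overlap.

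The composite site was searched on both strands in RefSeq's promoters of GRCm38.p6, in the 250 bases upstream of each start. Of 15 list members with a promoter in the table, 3 held it, and it was present for 2.62% of 10098 tested genes and in 3.45% of all 32851 windows. The stretches around the matches are shown because their genes rose in B220 LOW. Each reads 5′ to 3′ on the strand of its gene, with 1 match in capitals. They lie at chr6:7693210-7693252 for Asns (minus strand), chr2:119351029-119351076 for Chac1 (plus strand) and chr3:50443652-50443699 for Slc7a11 (minus strand).
Asns: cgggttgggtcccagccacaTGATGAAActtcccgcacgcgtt
Chac1: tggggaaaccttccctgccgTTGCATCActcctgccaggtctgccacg
Slc7a11: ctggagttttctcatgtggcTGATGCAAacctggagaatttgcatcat
The Chac1 match is on the opposite strand. The Slc7a11 start used lies inside the annotated span of the gene, and the stretch holds a second match on the opposite strand, left in lower case. A match is a run of letters and not a measured binding site, and no match says only that these letters are not in the window.

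Asns, the asparagine synthetase (chromosome 6, 7675165 to 7693209), stood at 413, 354 and 295 CPM in B220 LOW and at 40.2, 79.2 and 49.6 CPM in iMLL-ENL total. The lowest B220 LOW library was above the highest library of total marrow, and Asns rose by 2.73 (SE 0.29, adjusted p = 0.000644). In B220 HIGH it stood at 225, 135 and 64.4 CPM, lower than in B220 LOW by 1.44 (SE 0.24, adjusted p = 0.0447), the 1 list member of 16 that differed within the sorted table. Chac1, which breaks down glutathione, stood at 55.9, 36.6 and 6.62 CPM against 0.834, 1.61 and 4.62 CPM. Its number 3 libraries lay close together, and it rose by 3.86 (SE 1.03, adjusted p = 0.0263). Slc7a11, the cystine importer, stood at 84.5, 107 and 55.3 CPM against 3.61, 1.67 and 26.3 CPM and rose by 3.95 (SE 0.93, adjusted p = 0.0224). Slc7a11 was higher still in B220 HIGH, at 129, 207 and 482 CPM.

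The serine and one-carbon enzymes rose together. Psat1, the transaminase of serine synthesis (chromosome 19, 15905123 to 15925059), stood at 1076, 850 and 679 CPM in B220 LOW and at 240, 187 and 134 CPM in iMLL-ENL total, with number 1 highest and number 3 lowest in both. Psat1 rose by 2.26 (SE 0.24, adjusted p = 0.000615). Mthfd2, the mitochondrial folate enzyme (chromosome 6, 83305704 to 83326011), stood at 257, 375 and 234 CPM against 37.5, 65.2 and 32.2 CPM and rose by 2.75 (SE 0.26, adjusted p = 0.000377). Phgdh, which opens serine synthesis, went from 0.666 ± 0.12 to 15.2 ± 6.00 CPM (4.47, SE 0.73, adjusted p = 0.00368). Psph and Shmt2, which act beside them, rose by 2.47 and 1.82. The importer subunits Slc7a5 and Slc3a2 rose by 2.15 and 1.18.

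Among the regulators, Atf4 itself stood at 764, 919 and 785 CPM against 250, 361 and 359 CPM and rose by 1.39 (SE 0.23, adjusted p = 0.00375). Cebpb, a C/EBP partner, rose by 3.03 (SE 0.49, adjusted p = 0.00346). Trib3, a pseudokinase that ATF4 induces, stood at 45.2, 11.3 and 1.08 CPM against at most 0.389 CPM and rose by 5.32 (SE 0.98, adjusted p = 0.00584). Ddit3, which encodes CHOP, stood at 46.9, 22.2 and 37.3 CPM against 6.35, 19.8 and 10.4 CPM and did not pass (1.68, SE 0.55, adjusted p = 0.0551). Sesn2 did not pass either (0.70, SE 0.78, adjusted p = 0.568). Of the 16 genes, 9 were higher in B220 HIGH against iMLL-ENL total, with a median of 1.44, where 10.5% of all genes were called in either direction. Without B220 LOW number 1 the main comparison called 10 of the 16.

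**Figure D3:**
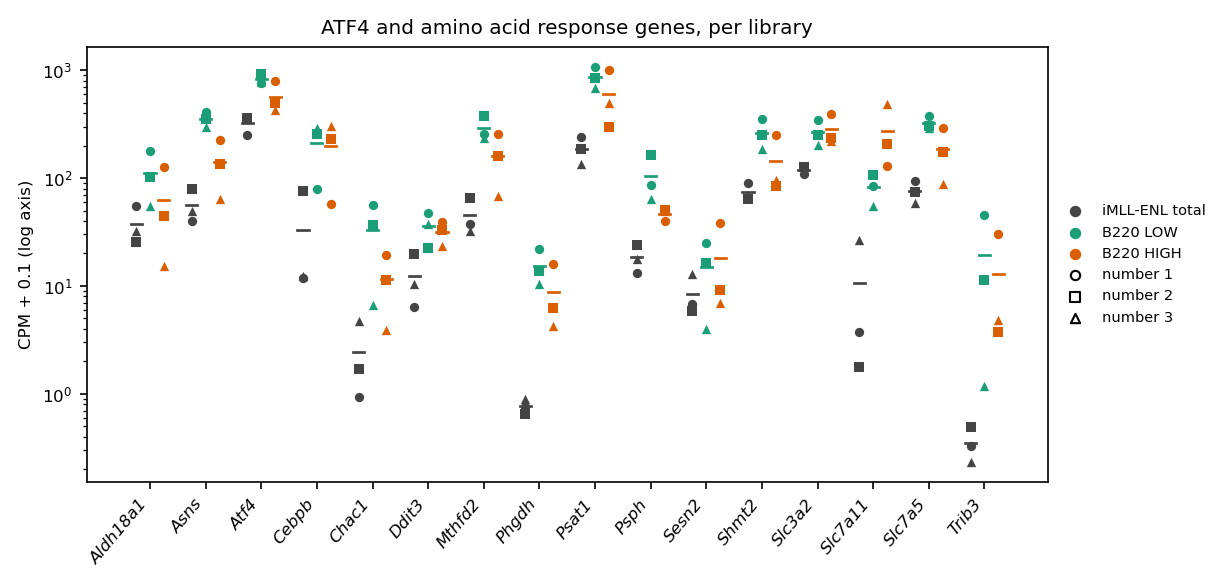
CPM plus 0.1 on a log axis of the 16 ATF4 and amino acid response genes in each library, with bars at the group means. For 15 genes every B220 LOW point lies above every iMLL-ENL total point, and most B220 HIGH points lie between or near B220 LOW.

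Short genes were higher and long genes lower in B220 LOW. The deposited tables give a width in bases for each gene. Among 5 equal classes of the tested genes by width, in the one with the smallest widths (42 to 1687 bases) the median log2 change was 0.73 and 24.6% of genes were called higher. In the class with the largest widths (5617 to 107966 bases) the median was -0.41, and 16.4% were called lower. The trend ran the same way in each pair of numbers, from 1.02 to -0.55 in number 3 and from 0.43 to -0.29 in number 2. It was also present in B220 HIGH against iMLL-ENL total, from 0.58 to -0.41, and spanned only -0.13 to 0.04 in B220 HIGH against B220 LOW. The trend thus moved with the table and the sort, which cannot be told apart. With the trend taken out of each library, an alternative chosen after the data were seen, 1736 genes were called.

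**Figure D4:**
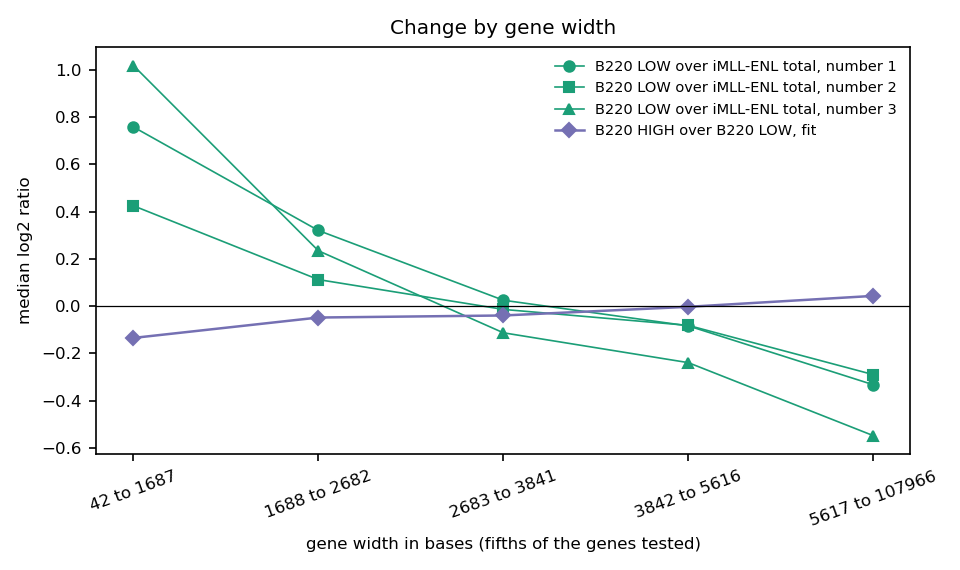
Median log2 ratio (y axis) in 5 equal classes of the tested genes by gene width in bases (x axis), for each number of B220 LOW over iMLL-ENL total and for B220 HIGH over B220 LOW. The 3 pairs fall from positive medians for the shortest genes to negative ones for the longest, while the comparison within the sorted table stays between -0.13 and 0.04.

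Ribosomal protein and respiratory chain genes, which are short, rose in large numbers. Of 78 cytoplasmic ribosomal protein genes tested 45 rose and 0 fell, with a median of 1.52 and a median width of 746.5 bases. With the width trend removed 19 rose and the median was 0.55. Rps20 stood at 593, 637 and 773 CPM in B220 LOW and at 76.5, 212 and 62.6 CPM in iMLL-ENL total, and rose by 2.76 (SE 0.37, adjusted p = 0.00186). Rplp1, a stalk protein of the large subunit, rose by 2.38 (SE 0.29, adjusted p = 0.00108). Ribosomal protein genes have many near-identical processed copies in the genome, so their counts depend on how shared reads were assigned, and they are uncertain.

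Of 78 nuclear-encoded genes of the respiratory chain and ATP synthase tested, 60 rose and 0 fell, with a median of 1.97 and a median width of 670 bases. With the width trend removed 29 rose, 1 fell and the median was 0.88. Ndufa2, a subunit of complex I, stood at 104, 171 and 202 CPM in B220 LOW and at 10.5, 39.6 and 9.91 CPM in iMLL-ENL total, and rose by 3.28 (SE 0.43, adjusted p = 0.00151). Uqcrq, a subunit of complex III, rose by 2.74 (SE 0.34, adjusted p = 0.00115). Between the sorted groups 0 of 78 genes were called in either list. For the ATF4 list the same removal left 13 of 16 higher with a median of 2.21, and for the monocyte list 17 of 18 lower with a median of -2.97.

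Noncoding RNAs moved in both directions. Of 10 tested on a list of nuclear-retained and long noncoding RNAs, 4 rose and 3 fell, with a median of 0.65. Without the block 3 rose and 0 fell. Without B220 LOW number 3, 1 rose and 2 fell, and without B220 LOW number 2 or iMLL-ENL total number 2, 3 rose and 1 fell. Malat1, which stays in the nucleus, stood at 5658, 2756 and 3170 CPM in B220 LOW and at 8820, 5820 and 10619 CPM in iMLL-ENL total and fell by 1.12 (SE 0.27, adjusted p = 0.0175). Neat1, the scaffold of paraspeckles, fell by 1.85 (SE 0.39, adjusted p = 0.0095). Its call was not made without the block (adjusted p = 0.0613), B220 LOW number 3 (adjusted p = 0.0803) or iMLL-ENL total number 3 (adjusted p = 0.242). Xist fell by 1.05 (SE 0.27, adjusted p = 0.0207), and its call ended without the block, without B220 LOW number 2 and without iMLL-ENL total number 1 or 2. None of the 3 was called lower with the width trend removed. The members that rose, Snhg1, Snhg3, Snhg5 and Snhg12, are host genes of small nucleolar RNAs. Snhg5 rose by 1.91 (SE 0.40, adjusted p = 0.00935), a call also lost then (adjusted p = 0.0621).

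Some cell cycle genes were higher in B220 LOW. Of 24 proliferation genes 5 rose (20.8%, against 10.4% of all genes) and 0 fell, with a median of 0.45. With the width trend removed 2 of the 24 rose, and 903 of all 12750 genes tested did. Mki67, a marker of cycling cells, stood at 2514, 2100 and 2459 CPM in B220 LOW and at 3054, 3190 and 2754 CPM in iMLL-ENL total and did not pass (-0.32, SE 0.24, adjusted p = 0.384). Birc5, a regulator of mitosis and cell death, rose by 1.41 (SE 0.25, adjusted p = 0.00517) and Rrm2, a subunit of ribonucleotide reductase, by 0.89 (SE 0.23, adjusted p = 0.0213). The Rrm2 call was lost when any 1 library other than iMLL-ENL total number 3 was left out, and with the width trend removed (adjusted p = 0.0726). Without the block 1 of the 24 was called, and leaving out 1 library gave 1 to 3, with 1 without B220 LOW number 3, iMLL-ENL total number 1 or iMLL-ENL total number 2.

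Of 14 p53 target genes tested 5 rose (35.7%, against 10.4% of all genes) and 1 fell (7.14%, against 8.45%). When any 1 library was left out 3 rose. Bax, which opens the mitochondrial outer membrane in cell death (chromosome 7, 45461695 to 45466903), stood at 131, 135 and 170 CPM in B220 LOW and at 20.2, 43.1 and 31.4 CPM in iMLL-ENL total. The groups did not overlap, and Bax rose by 2.30 (SE 0.31, adjusted p = 0.00174). Ccng1 rose by 1.49 (SE 0.27, adjusted p = 0.00518) and Cdkn1a, the cell cycle inhibitor p21, by 1.71 (SE 0.53, adjusted p = 0.0442). The member that fell was Btg2. Of 13 heat shock and chaperone genes 5 rose (38.5%, against 10.4% of all genes) and 1 fell (7.69%, against 8.45%). The fall was lost without either library of number 1 or of number 2. The mitochondrial chaperonins Hspe1 and Hspd1 rose by 3.10 (SE 0.43, adjusted p = 0.00197) and 1.77 (SE 0.34, adjusted p = 0.00706). The genes of this pair overlap in the annotation.

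Glycolysis and hypoxia genes had 5 of 21 higher (23.8%, against 10.4% of all genes) and 0 lower, with a median of 0.82. Without B220 LOW number 1 there were 2 higher and 1 lower, with a median of 0.29, and without iMLL-ENL total number 1 also 2 and 1, with a median of 0.32. Leaving out either library of number 2 gave 3 higher, and leaving out iMLL-ENL total number 3 gave 10. Ldha, the lactate dehydrogenase subunit (chromosome 7, 46842274 to 46855627), stood at 1803, 900 and 1027 CPM in B220 LOW and at 350, 403 and 205 CPM in iMLL-ENL total and rose by 1.98 (SE 0.29, adjusted p = 0.00251). Pfkp, a phosphofructokinase, stood at 420, 208 and 173 CPM against 87.2, 98.3 and 90.9 CPM and rose by 1.45 (SE 0.29, adjusted p = 0.00854). Its call ended without B220 LOW number 1 (adjusted p = 0.0581) or iMLL-ENL total number 1 (adjusted p = 0.0595). B220 LOW number 1 was the highest sorted library of several members: Bnip3, a hypoxia-induced mitophagy receptor, stood at 73.7, 2.46 and 4.51 CPM in B220 LOW, at 57.0, 14.2 and 11.6 CPM in B220 HIGH and at 3.24 to 4.78 CPM in iMLL-ENL total. The median of the list by pair was 1.41, 0.64 and 0.09 for numbers 1, 2 and 3.

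Of 22 tested targets of MLL fusions 0 rose and 5 fell (22.7%, against 8.45% of all genes), with a median of -0.00. Without the block 3 fell. Hoxa9, a homeobox factor that sustains these leukemias, stood at 176, 237 and 56.5 CPM in B220 LOW and at 119, 166 and 12.99 CPM in iMLL-ENL total and did not pass (1.07, SE 0.36, adjusted p = 0.059), although it passed with DESeq2 (adjusted p = 0.0271) and without B220 LOW number 1 (adjusted p = 0.0326). Its partner Meis1 stood at 200, 154 and 92.9 CPM against 282, 134 and 87.8 CPM (-0.04, SE 0.26, adjusted p = 0.928), and its sign turned without either library of number 1. Number 3 was the lowest library of both genes on both sides. The members that fell were Flt3, Mef2c, Bcl2, Cdk6 and Zeb2. Zeb2, a repressor active in myeloid and dendritic cells, stood at 467, 476 and 477 CPM against 1347, 1200 and 1067 CPM and fell by 1.31 (SE 0.24, adjusted p = 0.00538), a call lost with the width trend removed (adjusted p = 0.0937). Mef2c fell by 1.83 (SE 0.31, adjusted p = 0.00449) and was not called without the block (adjusted p = 0.262). The cytokine receptor Flt3 fell by 4.95 (SE 1.22, adjusted p = 0.019), and was not called without B220 LOW number 3 (adjusted p = 0.0588) or without the block (adjusted p = 0.232). Of 10 stem cell genes tested Kit alone was called, which is 10% lower, against 8.45% of all genes. Kit stood at 41.6 ± 28.04 against 123 ± 32.0 CPM (-1.87, SE 0.40, adjusted p = 0.0108), a call not made without the block (adjusted p = 0.0994). Cd34 stood at 52.6 ± 26.3 against 57.5 ± 37.7 CPM (0.05, SE 0.32, adjusted p = 0.929), and its sign turned under other scaling factors.

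Some genes differed widely between library numbers in both groups. Of the 6 with the largest range over the 3 iMLL-ENL total libraries, chosen on that group alone and given without a test, 5 are described here: Pik3c2g, Epha7, Eya1, Slc22a3 and Cdc42bpa. Eya1, a transcriptional coactivator, stood at 280, 0.889 and 43.6 CPM in iMLL-ENL total numbers 1, 2 and 3 and at 210, 0.372 and 86.0 CPM in B220 LOW. Pik3c2g, a lipid kinase, stood at 928, 12.999 and 0.440 CPM and at 368, 0.298 and 2.95 CPM. Epha7, an ephrin receptor, stood at 461, 5.28 and 0.132 CPM and at 311, 7.14 and 2.83 CPM. Number 1 was the highest library of these 5 genes in both groups, and for Eya1 number 2 was the lowest in both.

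**Figure D5:**
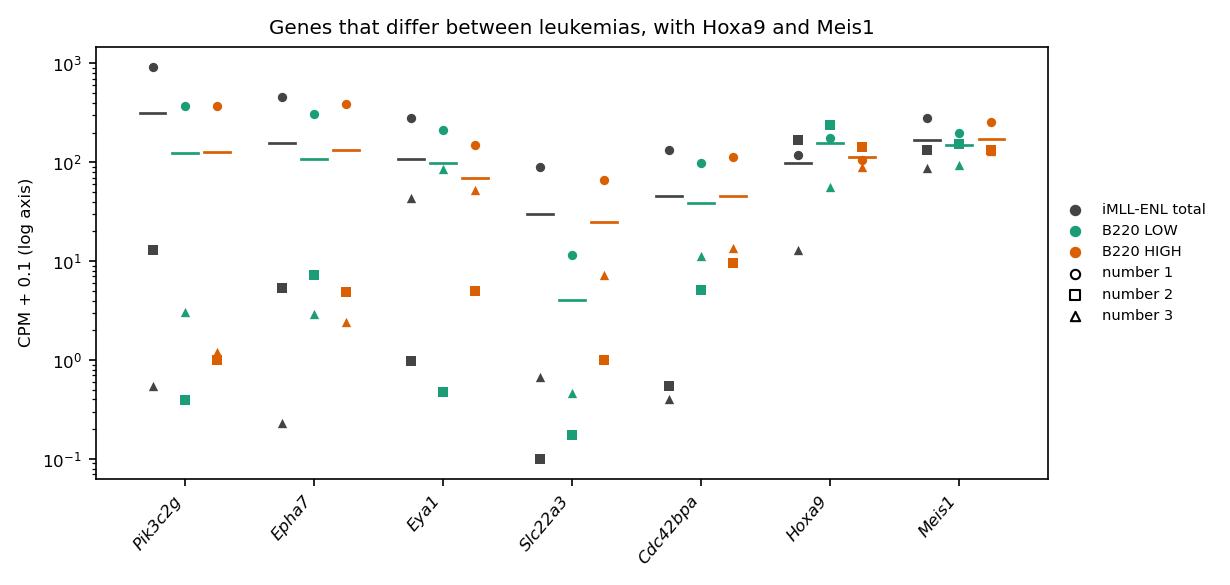
CPM plus 0.1 on a log axis, by library, of 5 genes with a large range over iMLL-ENL total and of Hoxa9 and Meis1, with bars at the group means. Circles (number 1) lie highest for the 5 genes in all 3 groups, while Hoxa9 and Meis1 spread less.

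The largest rises among called genes without overlap, at a mean log2 CPM of 3 or more, were Stc2, Spint1, Cth, Socs2, Bcat1, Mmp12, Ak4 and Slc1a4. Stc2, a secreted glycoprotein made under endoplasmic reticulum stress (chromosome 11, 31359441 to 31370061), stood at 137, 23.0 and 18.2 CPM in B220 LOW and at 0.0463, 0.167 and 0 CPM in iMLL-ENL total and rose by 9.40 (SE 0.83, adjusted p = 0.000277). Cth, which makes cysteine by transsulfuration (chromosome 3, 157894248 to 157925081), stood at 32.3, 207 and 73.6 CPM against at most 0.837 CPM and rose by 7.66 (SE 0.64, adjusted p = 0.000224). In B220 HIGH Cth stood at 30.8, 14.5 and 2.58 CPM. Bcat1, the cytosolic transaminase of branched-chain amino acids (chromosome 6, 144993835 to 145076157), stood at 58.4, 47.5 and 63.2 CPM against 0.463, 1.72 and 1.45 CPM and rose by 5.69 (SE 0.54, adjusted p = 0.000395). Slc1a4, a carrier of neutral amino acids, rose by 5.37 (SE 0.73, adjusted p = 0.00192).

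Spint1, which encodes a membrane inhibitor of serine proteases, stood at 19.4, 19.9 and 14.4 CPM in B220 LOW and had 2 counts over all libraries of total marrow, which is a ratio of 552 (95% counting interval 152 to 4563). Socs2, an inhibitor of cytokine signalling, stood at 22.7, 12.3 and 33.2 CPM against at most 0.278 CPM and rose by 6.75 (SE 0.82, adjusted p = 0.00108). Mmp12, the macrophage elastase, rose by 5.68 (SE 0.97, adjusted p = 0.00437), and its call ended without B220 LOW number 3 (adjusted p = 0.0807) or iMLL-ENL total number 3 (adjusted p = 0.381). In B220 HIGH Mmp12 stood at 455, 619 and 2840 CPM, above every B220 LOW library. Ak4, a mitochondrial adenylate kinase, stood at 70.2, 2.38 and 0.782 CPM against at most 0.556 CPM, and its call rested on B220 LOW number 1 (5.58, SE 0.96, adjusted p = 0.00452, against 4.36 and adjusted p = 0.228 without it).

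Among called genes without overlap at a mean log2 CPM of 3 or more, the largest falls were Ms4a4c, Slfn1, Stxbp6, Arhgef37, Lifr, Cx3cr1, Fn1 and Adam19. Fn1, which encodes the matrix protein fibronectin (chromosome 1, 71585473 to 71653280), stood at 7.99, 7.66 and 10.2 CPM in B220 LOW and at 1017, 442 and 3188 CPM in iMLL-ENL total. The B220 LOW libraries lay close together and far below, and Fn1 fell by 7.03 (SE 0.48, adjusted p = 0.000114). In B220 HIGH it stood at 26.9, 20.8 and 52.8 CPM. Ms4a4c, a membrane protein of the monocyte list, stood at 0.0655, 0.372 and 0 CPM against 19.0, 38.3 and 24.0 CPM and fell by 7.76 (SE 0.86, adjusted p = 0.000817). Slfn1, a member of the Schlafen family, fell by 7.60 (SE 0.85, adjusted p = 0.000817). Lifr, the receptor for leukemia inhibitory factor, fell by 7.39 (SE 0.87, adjusted p = 0.000856). Fits over all 9 leukemic libraries did not call Cx3cr1 (adjusted p = 0.0579), Lifr (adjusted p = 0.0609) or Adam19 (adjusted p = 0.087).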

How the data were processed

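Gene counts of 6 libraries were compared, 3 of B220 LOW and 3 of iMLL-ENL total. The 3 B220 HIGH libraries gave side values. The authors deposited raw counts per gene with a gene width in bases. Their separately normalized CPM tables were not used. GRCm38 and edgeR are named per the submitters' processing notes, and the aligner and counter are not stated there. Per the labels, the libraries keep no strand, so a gene that overlaps another is uncertain (among those printed Cx3cr1, Ms4a4c, Slfn1, Stxbp6, Socs2, Bcat1, Mpo, Csf1r, F13a1, Pax5, Siglech, Tcf4, Selp, Il1b, Cd163, Cd34, Meis1, Kmt2a, Zeb2, Mef2c, Flt3, Cdk6, Bcl2, Hspe1, Hspd1, Ldha, Pfkp, Bnip3, Ddit3, Psph, Shmt2, Rps20, Uqcrq, Ndufa2, Slc22a3 and Cdc42bpa).

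The tables were joined by NCBI gene ID, and 23968 of 24028 IDs matched the reference. Genes were filtered with filterByExpr (minimum count 10), scaled by TMM and tested in edgeR 4.0.16 (R 4.3.3), two-sided, with the library number as a block and Benjamini-Hochberg adjustment over all genes tested. The script was tested on simulated data. The numbers were treated as pairs because deviations from the group means correlated within each number (0.373, 0.293 and 0.162). Between numbers the correlations were -0.292 to 0.0301. Deviations from a mean of 3 libraries cancel out within a group, so these are no separate evidence for the pairs. CPM were computed on library totals. Counting intervals cover counting error only.

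Named genes were the 8 largest rises and 8 largest falls without overlap at a mean log2 CPM of 3 or more, up to 2 called members of each list, and a fixed panel. Members and lists were chosen with earlier results of these data known, and other list members were chosen after their values were seen. Alternatives changed the block, scaling, filter, tool, libraries and fold threshold. Removal of the gene width trend was added after the data were seen. Some genes of the named-gene rule are not reported here.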

Additional observations from a re-analysis of the deposited data

How the results depend on the processing

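Without the replicate block 1469 genes were called, 873 higher and 596 lower, and 1451 of them were also called with it. DESeq2 called 3711 genes, 1907 of them lower. A test against a fold of at least 2 called 421, with 215 higher and 206 lower. Leaving out 1 library gave 1265 to 2052 calls, 580 to 1168 higher and 618 to 1006 lower. The share of calls that were higher was 55.1%, and 45.8% without B220 LOW number 3. Removing the width trend gave 1736 calls, of which 1500 were shared with the main result.

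Signs turned for 5 genes that had not passed. Cd34 went to -0.083 without the replicate block, -0.0010 with RLE factors, -0.0018 with DESeq2, -0.017 without a filter, -0.056 with limma-voom, -0.039 with the width trend removed, and -0.23 without B220 LOW number 2 or iMLL-ENL total number 2. S100a8 went to -1.06 with the width trend removed, -0.04 and -0.18 without B220 LOW numbers 1 and 3, and -0.01 and -0.12 without iMLL-ENL total numbers 1 and 3, and to 0.89 without B220 LOW number 2. Meis1 went to 0.24 with the trend removed, 0.18 without B220 LOW number 1 and 0.21 without iMLL-ENL total number 1, against -0.22 without B220 LOW number 3. With the trend removed Kmt2a was 0.26 and Mki67 0.17. The cause was not tested. With 3 libraries a group, and sort and table joined to the group, no setting separates these.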

Other observations

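The cytosolic aminoacyl-tRNA synthetases, which charge tRNAs with amino acids, were listed after values had been seen and are given as a description. Of 20 genes tested 13 were higher in B220 LOW and 0 lower, with a median log2 change of 1.16, and 13 were higher with the width trend removed. Tars, the threonine enzyme, stood at 235, 380 and 385 CPM in B220 LOW and at 77.8, 99.0 and 65.7 CPM in iMLL-ENL total. Genes of the antioxidant response, listed in the same way, had 8 of 19 higher and 0 lower, with a median of 0.96. With the width trend removed 7 were higher and the median was 0.51. Gclm, a subunit of the enzyme that starts glutathione synthesis, stood at 170, 222 and 312 CPM against 32.1, 51.3 and 29.7 CPM.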
